A study of Mus musculus with 2 samples.

Results

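Peptide hormones, neuropeptides and their receptors were examined as a list of 40 genes in ACSA-2-sorted astrocytes after focal cerebral ischemia. The members were chosen by the strong difference of Gh and Npy1r between the 2 arrays of the series, joined by related genes, and the differences below are therefore given as a description. Of the 40 genes, 39 had a probe set with a gene symbol, out of 19494 genes named on the array, and Prlr, the prolactin receptor, had none among the named probe sets and was not analysed here. The cells came from the ipsilateral cortices of male C.B-17/Icr-+/+Jcl mice, in which the middle cerebral artery was permanently occluded (MCAO) at 7 weeks of age and which received BrdU at 50 mg/kg/day on the first days after surgery. The MCAO + exercise group had a running wheel for voluntary exercise during the 15 days after MCAO, and the MCAO + non-exercise group was housed without one, although mice of both groups had been trained on a wheel before surgery. At POD15 astrocytes of each group were taken with magnetic beads through the surface antigen ACSA-2. RNA of several sorted samples, each from more than 1 mouse, was mixed into 1 pool per group and hybridised to 1 Clariom S array, which measures mouse transcripts with probe sets. With 1 array per group the spread between animals is unknown, and the values below carry neither an error nor a test.

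Peptide hormones and neuropeptides are cut from larger precursor proteins and stored in dense-core vesicles, from which they are released by neurons and endocrine cells. Most act on receptors coupled to G proteins, whereas growth hormone and prolactin bind cytokine-type receptors that signal through JAK2 and STAT5. In the cortex, NPY, somatostatin and VIP are known from GABAergic interneurons, and astrocytes carry some of the receptors. The anterior pituitary makes growth hormone, prolactin, thyrotropin and the POMC peptides, and the hypothalamus is the main source of vasopressin, oxytocin, orexin and MCH.

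Values are log2 of the deposited array intensities, and a difference is the value on the MCAO + exercise array minus that on the MCAO + non-exercise array. The sign of every difference follows the labels of the deposited arrays. These signs run opposite to those of the gene tables in the study, for 65 of 65 table genes that were found by symbol. No gene of the list stands in those tables, which hold far fewer genes than had a difference past 1 or -1 here. Lcn2 is lower with exercise in those tables. In the study its qPCR in sorted astrocytes tended the same way, and the share of GFAP-positive cells with Lcn2 protein was lower with exercise. Whether labels or tables are exchanged was not settled here, and if the labels are, every direction given below turns round. All 16 genes of an astrocyte marker list were above background on both arrays and had positive differences. Of these, 7 were past 1, although 3 of the 16 turned negative after quantile normalization. Over all 15196 genes above background on at least 1 array, 53.5% were positive, 46.4% negative and 3.77% above 1. Markers of mature oligodendrocytes (9 of 9 named) and of microglia and macrophages (10 of 10) were above background on both arrays as well. So were those of endothelial and mural cells (12 of 12). Summed linear intensities of the astrocyte list were 238216 with exercise and 154787 without. The oligodendrocyte list had 1.32e+06 and 769288, the microglia and macrophage list 985470 and 1.15e+06, and the endothelial and mural list 117848 and 74668. Vtn made up most of the endothelial and mural sums, at 86764.5 with exercise and 42624.1 without, and set their order. The oligodendrocyte and microglia lists were thus brighter than the astrocyte list, although such sums do not give shares of cells. The oligodendrocyte markers had positive differences in 9 of 9 cases, with a median of 0.82, against 0.80 for the astrocyte list. The microglia and macrophage markers were negative in 7 of 10 cases (median -0.28) and the endothelial and mural ones in 9 of 12 (median -0.31). The part of these cells in the results below was not tested. In pooled RNA, fewer cells of a type and less RNA per cell cannot be told apart.

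The background level was taken as the 25th percentile of the named probe sets on each array, a log2 intensity of 4.89 on the MCAO + exercise array and 5.08 on the MCAO + non-exercise array. Of the 39 genes, 21 lay above it on both arrays, 5 on the MCAO + exercise array alone and 2 on the MCAO + non-exercise array alone, and these 28 were kept. The other 11 lay below it on both, namely the ligand genes Vip, Adcyap1, Grp, Avp, Hcrt and Gal and the receptor genes Sstr1, Sstr2, Vipr2, Tacr1 and Tacr3. No fold is given for these 11 genes. Those above it on the MCAO + exercise array alone were Gh, Prl, Cga, Crh and Nts, and those above it on the MCAO + non-exercise array alone were Trh and Sstr3. For these 7 only a bound can be given, so that a gene kept in this way counts as differing partly because of how it was kept.

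**Figure D1:**
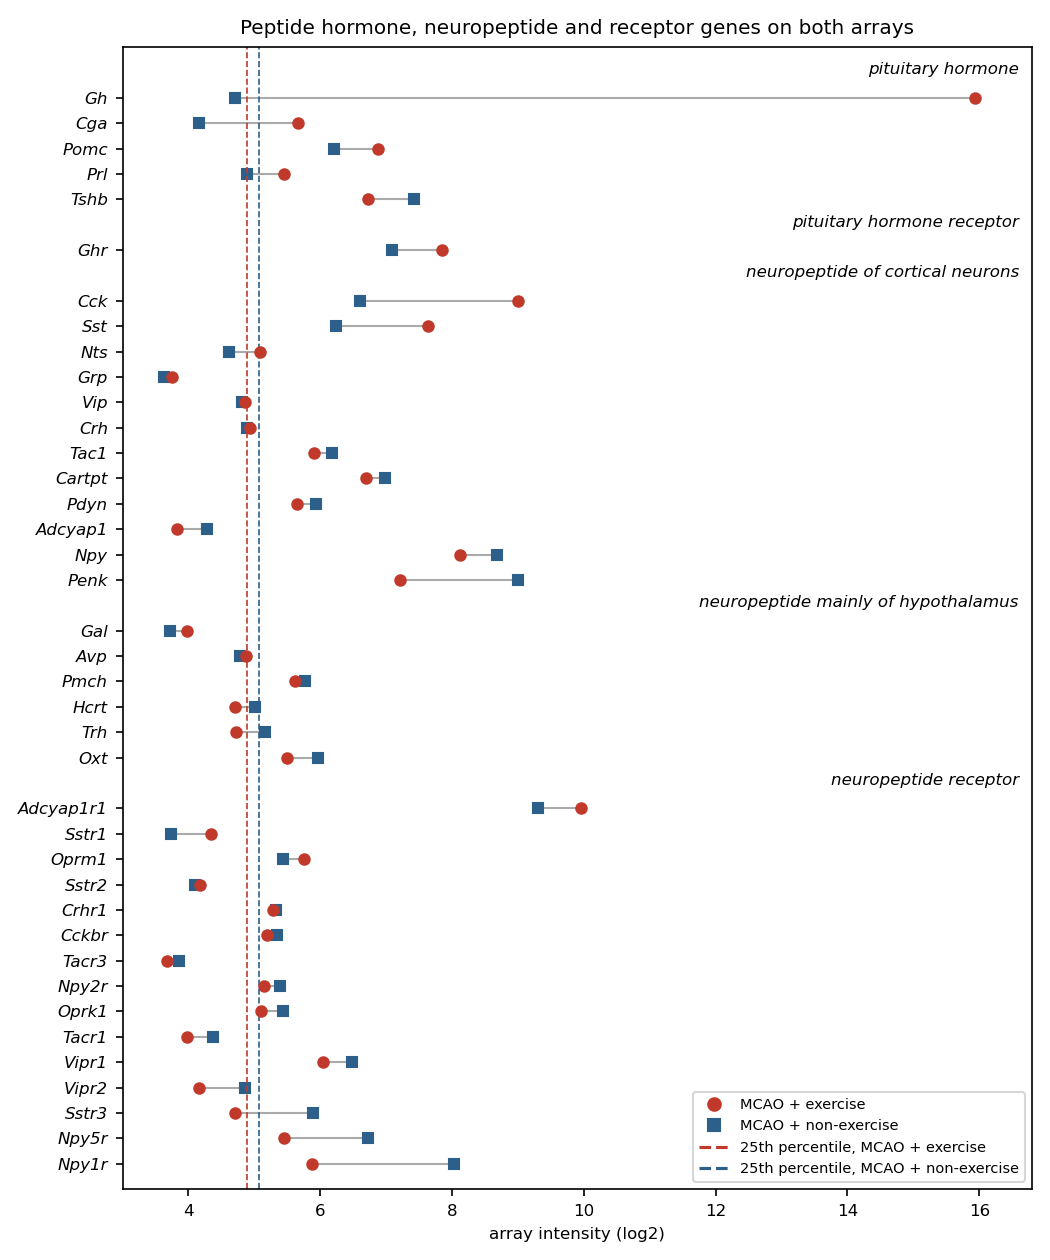
Array intensity (log2) of the 39 genes with a named probe set, by role, with circles for the MCAO + exercise array, squares for the MCAO + non-exercise array and dashed lines at the 25th percentile of each array (4.89 and 5.08). Gh lies at 15.94 on the MCAO + exercise array and below background on the other, and most other genes lie within 1 of their value on the other array.

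Gh, which encodes growth hormone, had the largest difference of any kept gene. Its log2 intensity was 15.94 on the MCAO + exercise array and 4.71 on the MCAO + non-exercise array, where it was below background, so that the signal was bright in one pool and not above background in the other. On the linear scale the intensity was 62797 on the MCAO + exercise array and 26.2 on the MCAO + non-exercise array. Against the background level of the MCAO + non-exercise array, Gh was at least 1862-fold higher with exercise by label. The measured difference was 11.23, whereas the next largest among 15196 kept genes was 4.80, for the neuronal gene Nrsn1. No other gene came near this pair of values. The nearest over the 2 arrays, again Nrsn1, was 4.55 log2 units away, and the next, Rims1 and Kif5c, were 5.45 and 5.55 away.

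The other pituitary hormones did not share the size of the Gh difference. Cga, the common alpha subunit of the glycoprotein hormones, had log2 intensities of 5.66 on the MCAO + exercise array and 4.16 on the MCAO + non-exercise array. The second of these was below background, and Cga was at least 1.50-fold higher with exercise. Its measured difference of 1.50 on the log2 scale was past the threshold of 1 used in the study, but its bound of 0.58 was not. Prl, prolactin, had 5.44 on the MCAO + exercise array and 4.89, below background, on the MCAO + non-exercise array, a bound of at least 1.29-fold higher. Pomc, the precursor of ACTH and beta-endorphin, was above background on both arrays, at 6.88 with exercise and 6.21 without, a difference of 0.67. Tshb, the beta subunit of thyrotropin, went the other way, at 6.72 on the MCAO + exercise array and 7.41 on the MCAO + non-exercise array, a difference of -0.70. Thus 4 of the 5 hormone genes had a positive and 1 a negative difference, and 2 were above 1 (Gh and Cga), where 3.77% of all kept genes were. With a bound in place of the dim value only Gh was. These counts hold Gh, for which the list was picked. Gh, Cga and Prl were kept only through the MCAO + exercise array, so no more is read from the counts.

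Most markers of pituitary tissue were below background on both arrays. Of 10 named genes on a pituitary list, leaving out the hormones above, 6 were below background on both arrays, namely the transcription factors Lhx3, Tbx19 and Pitx1, the releasing hormone receptors Ghrhr and Gnrhr and the gonadotropin subunit Lhb. The other 4 were all within the threshold. Lhx4, a transcription factor, had log2 intensities of 6.81 on the MCAO + exercise array and 7.42 on the MCAO + non-exercise array, Hesx1 had 5.44 with exercise and 5.18 without, Nr5a1 had 5.44 with exercise and 5.53 without, and the gonadotropin subunit Fshb had 5.23 with exercise and 4.77, below background, without. The summed linear intensity of the 10 genes was 346.1 on the MCAO + exercise array and 394.3 on the MCAO + non-exercise array, an order set by Lhx4, since the sums without it were 233.9 with exercise and 222.8 without. Where the Gh signal came from was not tested.

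The growth hormone receptor and the genes downstream of it lay within the threshold. Ghr had log2 intensities of 7.85 on the MCAO + exercise array and 7.09 on the MCAO + non-exercise array, a difference of 0.76, the largest of any listed gene within the threshold. Of 11 genes of growth hormone and prolactin receptor signalling, 9 were kept and 0 passed 1, with 4 positive and 5 negative differences and a median of -0.03, which turned to 0.02 after quantile normalization and after loess. The feedback inhibitor Socs3 had the highest difference, at 10.22 on the MCAO + exercise array and 9.23 on the MCAO + non-exercise array (0.99). Socs2, another feedback inhibitor and a target of growth hormone signalling, had the lowest, at 8.24 with exercise and 8.85 without (-0.60). The kinase Jak2 had values of 11.10 with exercise and 10.89 without, and Igf1, the main growth factor induced by growth hormone in liver, had 14.96 with exercise and 15.53 without. The direct targets Cish and Igfals were below background on both arrays. These 9 kept genes stayed within 1 of their value on the other array, while Gh differed by more than 10. Most kept genes stayed within 1 as well, since 3.77% of all 15196 were above 1 and 2.36% under -1. No more is read from the count of 0.

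**Figure D2:**
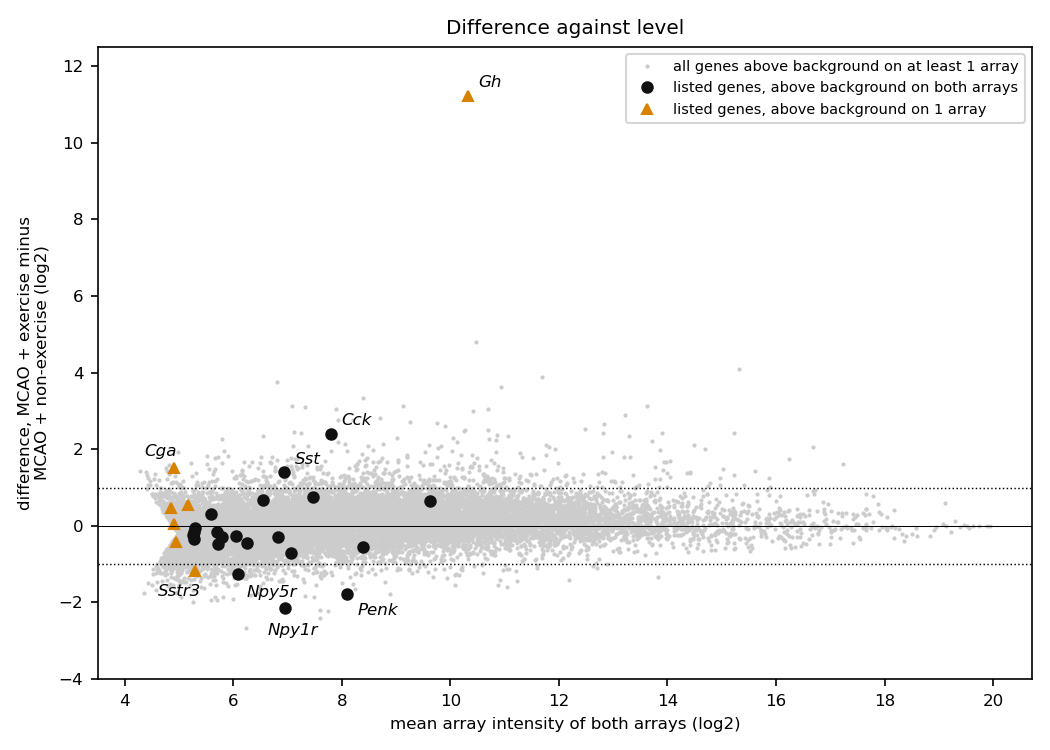
Difference between the arrays (MCAO + exercise minus MCAO + non-exercise, log2) against the mean log2 intensity of both, for all 15196 genes above background on at least 1 array (grey), listed genes above background on both arrays (black circles) and listed genes above it on 1 array (orange triangles), with dotted lines at 1 and -1. Gh stands alone at 11.23, and the other 7 named genes lie past the dotted lines, Cck, Cga and Sst above and Npy1r, Penk, Npy5r and Sstr3 below.

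Among the neuropeptide genes of cortical neurons, Cck and Sst were higher and Penk was lower on the MCAO + exercise array. Cck, which encodes cholecystokinin, a peptide of both interneurons and pyramidal cells, had log2 intensities of 9.01 on the MCAO + exercise array and 6.60 on the MCAO + non-exercise array. This is a 5.31-fold difference (2.41 on the log2 scale), number 32 from the highest of all kept genes. Sst, which encodes somatostatin, had 7.64 on the MCAO + exercise array and 6.24 on the MCAO + non-exercise array, a 2.64-fold difference (1.40 on the log2 scale). Both genes were above background on both arrays. Penk, the precursor of the enkephalins, was dimmer with exercise, at 7.207 on the MCAO + exercise array and 8.996 on the MCAO + non-exercise array, a difference of -1.79 and number 16 from the lowest of all kept genes.

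The remaining peptides of this group lay within the threshold. Npy, neuropeptide Y, had log2 intensities of 8.11 with exercise and 8.68 without, a difference of -0.56. The tachykinin precursor Tac1 had a difference of -0.27, the dynorphin precursor Pdyn one of -0.29 and the CART precursor Cartpt one of -0.29, all 3 above background on both arrays. Nts, neurotensin, had 5.09 on the MCAO + exercise array and 4.62, below background, on the MCAO + non-exercise array, and its bound of at least 1.01-fold higher leaves next to nothing of the measured difference. Crh, corticotropin-releasing hormone, had 4.93 with exercise and 4.89 without, with only the first above its background, and no fold is given. Vip, a marker peptide of interneurons, had 4.86 on the MCAO + exercise array and 4.81 on the MCAO + non-exercise array, both below background. The interneuron peptides thus split, with Sst higher, Npy lower within the threshold and Vip not above background.

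The sequences upstream of Sst and Cck are shown because these were the 2 listed genes past the threshold and higher on the MCAO + exercise array that were above background on both. They are the 150 bases before the annotated start in RefSeq, build GRCm38.p6, with Sst at chr16:23890845-23890994 and Cck at chr9:121495695-121495844, both on the minus strand. Capitals mark the cAMP response element TGACGTCA or its shorter core TGACG, searched on both strands, where the core reads CGTCA on the other strand and each full element holds the core in both directions.
Sst: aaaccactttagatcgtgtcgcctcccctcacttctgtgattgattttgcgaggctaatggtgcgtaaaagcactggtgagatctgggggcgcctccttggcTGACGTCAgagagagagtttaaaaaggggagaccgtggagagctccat
Cck: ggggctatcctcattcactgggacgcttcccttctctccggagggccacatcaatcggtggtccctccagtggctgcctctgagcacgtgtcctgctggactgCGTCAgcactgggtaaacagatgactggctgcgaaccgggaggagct
The full element of Sst began 48 bases before the start, and the core of Cck 47 bases before it. Over all 32851 RefSeq windows, from 250 bases before to 50 after a start, 1.79% held the full element and 20.8% the core. The 34 listed genes with such a window had 42 windows. Of these, 3 held the full element (Sst, Cartpt and Sstr2) and 17 the core, the latter in 16 genes. Of the other 2 with the full element, Cartpt had a difference of -0.29 and Sstr2 was below background on both arrays. A match describes the letters and says nothing of a factor bound there.

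The peptide genes used mainly in the hypothalamus were close to or below background. Oxt, oxytocin, had log2 intensities of 5.495 on the MCAO + exercise array and 5.963 on the MCAO + non-exercise array, a difference of -0.47. Pmch, the precursor of MCH, had 5.62 with exercise and 5.78 without, a difference of -0.15. Trh, thyrotropin-releasing hormone, was above background without exercise alone, at 4.73 on the MCAO + exercise array and 5.16 on the MCAO + non-exercise array, and was at least 1.20-fold lower. Avp, Hcrt and Gal were below background on both arrays. None of the 6 genes passed the threshold, and the 3 that were kept had negative differences, although Pmch turned to 0.03 after quantile normalization. Of 7 other named genes on a hypothalamic marker list, 5 were kept and 0 passed 1. Over all kept genes 3.77% were above 1 and 2.36% under -1.

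The receptor genes had mostly negative differences in the deposited values, and 3 of them were past -1. Of the 16 receptor genes with a named probe set, 11 were kept, of which 3 had positive and 8 negative differences, with 0 higher by more than 1 and 3 lower by more than 1, where 2.36% of all kept genes were lower. The median was -0.24, against 0.04 over all 15196 kept genes. At a mean log2 intensity of over 4 to 6, where 6 of the 11 lay, the median was -0.20 for these receptors. It was -0.18 for all 3482 kept genes of that level. The 4 receptors at over 6 to 8, Npy1r among them, had a median of -0.85, against -0.04 for all 4291 genes. The 1 receptor at over 8 to 10 had 0.66, against a median of 0.15 for all 3571. After quantile normalization 5 of the 11 receptors were positive and 6 negative, since Cckbr and Crhr1 changed sign, with a median of -0.04. This count holds Npy1r, for which the list was picked, and the genes of a family were not picked independently of it.

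In the NPY system, 2 of the 3 listed receptor genes were past -1, where 2.36% of all kept genes were. Npy1r, the Y1 receptor, had log2 intensities of 5.87 on the MCAO + exercise array and 8.02 on the MCAO + non-exercise array, a difference of -2.15. The linear intensity was 58.6 with exercise and 259.9 without, and 4 of the 15196 kept genes had a lower difference. Npy5r, the Y5 receptor, which takes part in the control of feeding, had 5.45 with exercise and 6.72 without, a difference of -1.26. Both receptors were above background on both arrays and were dimmer with exercise. Npy2r, the Y2 receptor, found mainly on presynaptic terminals, lay closer to background, at 5.14 on the MCAO + exercise array and 5.38 on the MCAO + non-exercise array (-0.24). With the ligand Npy at -0.56, the differences of the 4 genes were all negative, ranging from -2.15 to -0.24, with Npy2r at -0.04 after quantile normalization. Over all kept genes 46.4% were negative. These counts hold Npy1r, for which the list was picked, so no more is read from them. Npy6r, an NPY receptor gene outside the list, had 5.03 with exercise and 4.26, below background, without, and no fold is given. The genes with values most like those of Npy1r on the 2 arrays were Gm20877, Vegfd and Cep41, at distances of 0.51, 0.51 and 0.52 log2 units.

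Npy1r and Npy5r are neighbours in the mouse genome and are read in opposite directions, with 0 other annotated genes starting between them, so their upstream sequences are shown side by side. The 150 bases before each annotated start, from RefSeq build GRCm38.p6, lie at chr8:66697272-66697421 on the plus strand for Npy1r and at chr8:66688095-66688244 on the minus strand for Npy5r. No capitals appear, because neither stretch held TGACGTCA, TGACG or the TATA box TATAAA on either strand.
Npy1r: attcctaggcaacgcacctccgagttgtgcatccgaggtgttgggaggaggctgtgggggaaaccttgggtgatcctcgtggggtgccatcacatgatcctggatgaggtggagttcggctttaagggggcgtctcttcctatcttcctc
Npy5r: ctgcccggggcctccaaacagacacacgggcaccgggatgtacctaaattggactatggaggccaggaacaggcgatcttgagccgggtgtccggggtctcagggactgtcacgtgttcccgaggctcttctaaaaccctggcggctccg
TATAAA was found in 13.6% of all windows and in 10 of the 42 windows of the 34 listed genes with one. That these letters are missing here says nothing of how the genes are controlled.

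In the somatostatin and cholecystokinin systems the ligand and the receptors did not share a direction past the threshold. Sstr3, a somatostatin receptor of neuronal cilia, was below background on the MCAO + exercise array at a log2 intensity of 4.71 and above it on the MCAO + non-exercise array at 5.89, so that it was at least 1.99-fold lower. Its measured difference was -1.18 and its bound -0.996, just short of the threshold. Sstr1 and Sstr2 were below background on both arrays, although Sst itself was higher with exercise. Cckbr, the main cholecystokinin receptor of the brain, had 5.20 on the MCAO + exercise array and 5.35 on the MCAO + non-exercise array, a difference of -0.15 beside the 2.41 of Cck, and turned to 0.05 after quantile normalization.

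Of the 4 opioid genes, Penk alone was past the threshold. Beside Penk at -1.79 and Pdyn at -0.29, the kappa receptor Oprk1, on which dynorphin acts, had log2 intensities of 5.10 with exercise and 5.44 without (-0.34). The mu receptor Oprm1 had 5.76 on the MCAO + exercise array and 5.44 on the MCAO + non-exercise array, a difference of 0.32. After quantile normalization Pdyn was at -0.12 and Oprk1 at -0.14. Adcyap1r1, the PACAP receptor, which astrocytes express, had 9.96 on the MCAO + exercise array and 9.30 on the MCAO + non-exercise array, a 1.58-fold difference (0.66 on the log2 scale). Its ligand gene Adcyap1 was below background on both arrays. Vipr1, a receptor for both VIP and PACAP, had 6.04 with exercise and 6.48 without (-0.44), and Crhr1, the main receptor for CRH, had 5.28 with exercise and 5.33 without (-0.05, or 0.15 after quantile normalization).

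**Figure D3:**
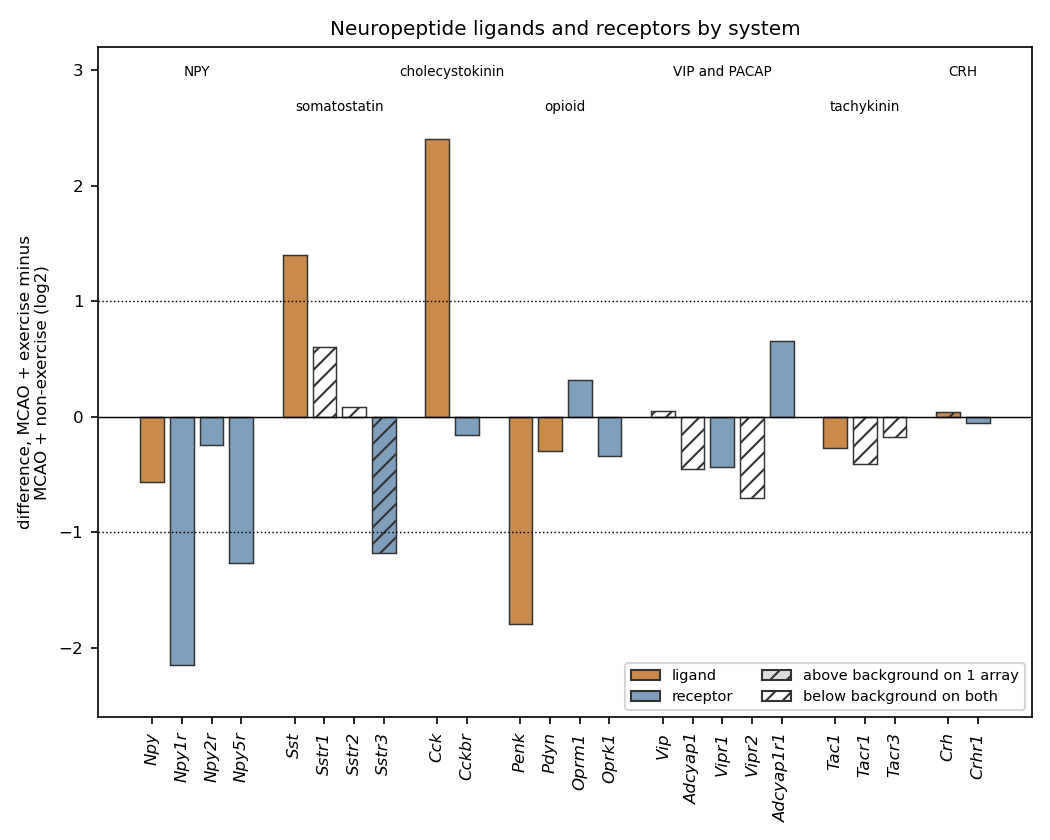
Difference (MCAO + exercise minus MCAO + non-exercise, log2) of each ligand (brown) and receptor (blue) gene of 7 neuropeptide systems, with hatching for genes above background on 1 array, white hatched bars for genes below it on both, and dotted lines at 1 and -1. All 4 NPY bars point down, while Sst and Cck are the only bars past 1, with Sstr3 under -1 and Cckbr slightly below 0.

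Counted over the list, 4 of the 28 kept genes had a difference above 1 (Gh, Cck, Cga and Sst) and 4 one under -1 (Npy1r, Penk, Npy5r and Sstr3), 14.3% each. Over all 15196 kept genes 3.77% were higher and 2.36% lower, that is 573 and 359 genes. Since the list was picked for 2 of its largest differences, no more is read from these counts. Leaving out Gh and Npy1r, 3 of 26 were higher and 3 lower. With the dim value of genes above background on 1 array set to background, 3 and 3 of the 28 passed, without Cga and Sstr3. Of the 21 genes above background on both arrays, 2 were higher and 3 lower, where 3.67% and 1.64% of all 14043 such genes were. The 20 kept genes within the threshold had differences from -0.70 to 0.76, and the median over the 28 was -0.20. Just inside the threshold lay Ghr (0.76), Tshb (-0.70) and Pomc (0.67), and just outside it Sstr3 (-1.18), Npy5r (-1.26) and Sst (1.40).

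The share of genes past the threshold depended on the level, and many listed genes were dim. Of the 28, 14 had a mean log2 intensity of over 4 to 6, where 1.69% of all 3482 kept genes were higher and 5.20% lower by more than 1, and of these 14 genes Cga was higher and Sstr3 lower. A further 10 had a mean of over 6 to 8, where 3.43% of 4291 genes were higher and 2.73% lower, and of these Cck and Sst were higher and Npy1r and Npy5r lower. At a mean of over 8 to 10 there were 3 listed genes, with Penk lower, and 1.01% of 3571 genes were lower at that level. The split over all genes moved with the scaling. With both arrays brought to a common median, 433 genes were higher and 575 lower, and with 32 added to each intensity first, 403 were higher and 99 lower.

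The 8 genes past the threshold had the same sign under each setting tried that kept them, but their size moved. Cck ranged from 2.08 to 2.41, Sst from 1.10 to 1.45, Penk from -1.90 to -1.59 and Npy1r from -2.255 to -1.69. With 32 added to each intensity before log2, Cga came to 0.73, Npy5r to -0.86 and Sstr3 to -0.65, which leaves these 3 within the threshold.

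**Figure D4:**
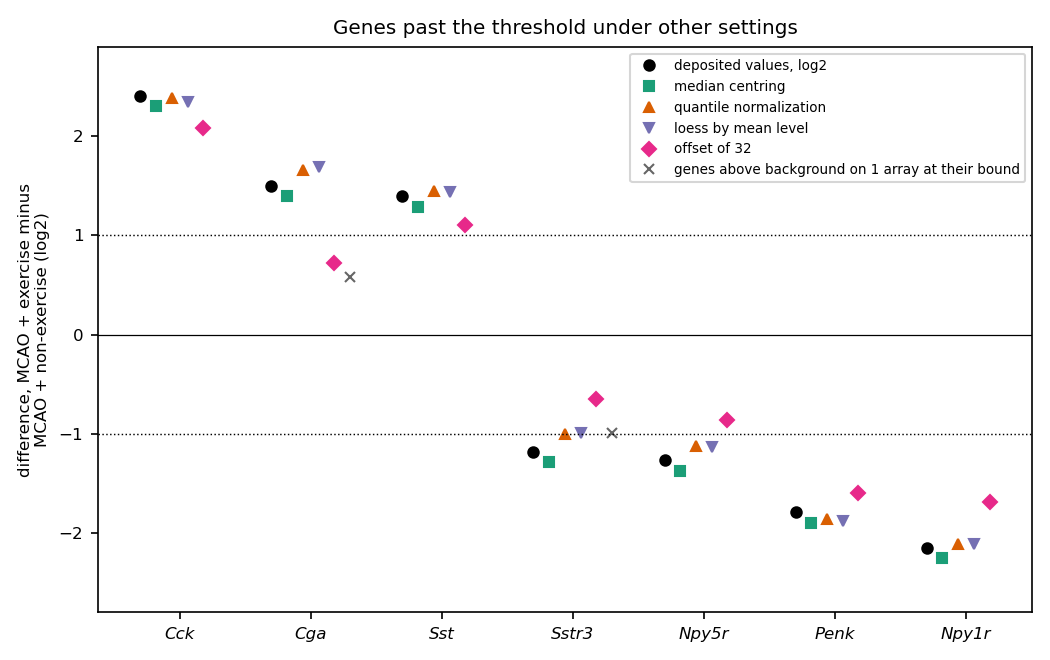
Difference (MCAO + exercise minus MCAO + non-exercise, log2) of 7 listed genes past the threshold under the deposited values (black circles), 3 other scalings, an offset of 32 added before log2 and, for Cga and Sstr3, with the dim value set to background (crosses). Cck, Sst, Penk and Npy1r stay outside the dotted lines at 1 and -1 under each setting, while Cga, Npy5r and Sstr3 come inside them with the offset.

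Among other kept peptide genes and receptors outside the list, 1 passed the threshold. Of 39 further neuropeptide and peptide hormone genes, 35 had a named probe set, 19 were kept and 1 passed it, in the negative direction, with 6 positive and 13 negative differences and a median of -0.27. The one past it was the gut hormone gene Gip, at log2 intensities of 6.94 on the MCAO + exercise array and 8.15 on the MCAO + non-exercise array (-1.20). The highest difference among those above background on both arrays was that of the vasodilator peptide Adm, at 7.76 with exercise and 7.24 without (0.52). Of 54 further receptor genes, 50 had a named probe set, 25 were kept and 0 passed 1 in either direction, with a median of -0.18. For comparison, 3.77% of all kept genes were above 1 and 2.36% under -1. The further receptor genes above background on both arrays ranged from -0.75 for Npr1 to 0.34 for Galr1. Npr1, a natriuretic peptide receptor, had 4.97 on the MCAO + exercise array and 5.72 on the MCAO + non-exercise array. Galr1, a galanin receptor, had 5.74 with exercise and 5.40 without.

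Genes that process and package peptides were in part higher on the MCAO + exercise array. Of 15 such genes, 14 had a named probe set, 11 were kept and 2 had a difference above 1, with 6 positive and 5 negative differences and a median of 0.27. Over all kept genes 3.77% were above 1 and 53.5% positive, with a median of 0.04. Pcsk1n, which encodes proSAAS, an inhibitor of prohormone convertase 1, had log2 intensities of 9.82 on the MCAO + exercise array and 7.68 on the MCAO + non-exercise array (2.14). Cpe, carboxypeptidase E, which trims cleaved peptides and is also expressed by astrocytes, had 12.37 with exercise and 11.29 without (1.08). Its difference came within 1 after median centring, quantile normalization and loess. The lowest was Cadps, a factor of dense-core vesicle release, at 9.31 on the MCAO + exercise array and 9.62 on the MCAO + non-exercise array (-0.31). Thus the enzymes and granule proteins did not follow a single direction.

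Markers of neurons, which make most of the listed peptides, were present on both arrays. Of 12 kept excitatory neuron markers, 9 had positive differences, 5 of them above 1, and the summed linear intensity of the list was 39841 on the MCAO + exercise array and 5629.6 on the MCAO + non-exercise array. Camk2a made up most of it, and without that gene the sums were 2587 with exercise and 1366 without. The 3 brightest were Camk2a, Slc17a7 and Nrgn, with differences of 3.13, 1.67 and 1.24. Of 10 kept GABAergic interneuron markers outside the list, 4 had positive and 6 negative differences, with 1 above 1 (Dlx2, not above background on the MCAO + non-exercise array) and 2 under -1 (Gad1 and Adarb2), and the sum was 994.7 with exercise and 1199 without. The GABA-synthesising enzyme genes Gad1 and Gad2 had differences of -1.04 and 0.51, Gad2 being above background on the MCAO + exercise array alone. The interneuron markers Pvalb and Ndnf had 0.76 each. Dlx1, the brightest of the 10, had -0.88, and Slc32a1, Reln and Sp8 had -0.27, -0.30 and -0.46. Sp8 was above background on the MCAO + non-exercise array alone. Slc17a7, the vesicular glutamate transporter of cortical excitatory neurons, differed in the same direction as Cck. Of 11 kept pan-neuronal markers, 3 were higher and 1 lower by more than 1. Over all kept genes 53.5% had positive differences, 3.77% were above 1 and 2.36% under -1. The part of any of these cells in the differences of the listed genes was not tested.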

How the data were processed

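The 2 columns of the series hold array intensities on a linear scale for 22142 probe sets, 1 pool per group. The authors had the arrays normalized by a contracted service with GCCN-SST-RMA, and Affymetrix Expression Console and RMA are named in the processing notes of the submitters. Their versions and a genome build were not given in the sources used here. No further scaling was applied to the deposited intensities before taking log2. The platform annotation gave 1 symbol to 19527 probe sets, several to 0 and none to 2615. The brightest probe set stood for each of the 33 genes with several. Genes above the 25th percentile of the named probe sets on at least 1 array were kept, in place of the study's negative control filter. A log2 difference past 1 or -1 was the threshold, as in the study. The study listed far fewer genes past it, and not Gh, Cck or Npy1r, which passed it here. The calls are therefore not comparable with those of the study, and the reason was not settled. For a gene above background on 1 array, the background level of the other array gave the bound.

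The members and gene lists were chosen with earlier results of these data known. The genes named are all members, the extremes of each pathway list and those past the threshold, and the brightest excitatory neuron markers. The receptor gene Npy6r, the kept interneuron markers outside the list and the pituitary markers were named in addition, after their values were seen. So were the signalling genes Jak2, Igf1, Cish and Igfals. Alternatives were a background at the 10th percentile, on both arrays or not applied, median centring, quantile normalization, loess (span 0.3), an offset of 32, the mean of probe sets and, added after seeing the data, values at their bound. The code was tested on simulated data. With 2 arrays, their number limits the precision. Python 3.11.15 was used with NumPy 2.4.6, pandas 2.3.3, statsmodels 0.14.6 and matplotlib 3.10.9.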

Additional observations from a re-analysis of the deposited data

How the results depend on the processing

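No paired analysis was possible because each group had 1 array. Of 224 differences of the 28 kept genes under the alternatives, 218 stayed on their side of the threshold, 6 moved and 0 turned in direction past it. Many of the 218 could not move. A changed background filter alters which genes are kept and not their differences, and the mean of probe sets left each listed value unchanged. All 6 moves came from the offset, loess or values at their bound. The offset of 32 brought Cga to 0.73, Npy5r to -0.86 and Sstr3 to -0.65, so that 2 genes were lower by more than 1, since an offset shrinks the differences of dim genes. Requiring background on both arrays left 2 higher, without Gh and Cga. Sstr3 was -0.99 after loess. The median of the list was -0.31 after median centring, which lowered all differences by 0.11, -0.0047 after quantile normalization and -0.0189 after loess, so that its distance from 0 depends on the scaling. Over all genes, against 359 in the deposited values, 575 were lower by more than 1 after median centring, 230 with background passed on both arrays and 99 with the offset. Gh ranged from 10.08 to 11.27. No spread between animals, sorts or arrays can be had from 1 array per group, and dim genes near the 25th percentile are the least certain.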

Other observations

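Genes through which peptide receptors act in neurons had mostly positive differences (MCAO + exercise minus MCAO + non-exercise). Of 18 such genes, 17 had a named probe set and 14 were kept, of which 13 had positive differences and 1 a negative one, with a median of 0.24. Over all 15196 kept genes 53.5% were positive. At a mean log2 intensity of over 10, where 8 of the 14 lay, 66.9% of all 3852 genes were positive. The median was 0.15 for the 8 and 0.16 for all, so that the lean of these brighter genes was close to that of their level. The dimmer ones lay above their level. Their medians were 0.82 for 2 genes at over 8 to 10, against 0.15 for all, and 0.53 for 3 at over 6 to 8, against -0.04. The 1 gene at over 4 to 6 had 0.23, against -0.18. Rgs4, which ends signals of G proteins, had log2 intensities of 10.20 on the MCAO + exercise array and 9.16 on the MCAO + non-exercise array and was the only one past 1 (1.03). The receptor-uncoupling arrestin Arrb1 had the negative difference, at 11.02 with exercise and 11.39 without (-0.38). After quantile normalization 11 were positive and 3 negative, and after median centring none was past 1. The list was chosen with earlier results of these data known, and no cause was tested.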
